A study of Homo sapiens with 6 samples.

Results

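The fibroblast growth factor (FGF) genes described here are 4 FGF receptor tyrosine kinases (FGFR1, FGFR2, FGFR3 and FGFR4), the decoy receptor FGFRL1, the ligands FGF1, FGF2 and FGF5, and the carrier protein FGFBP1. They were taken by gene symbol from a table of counts per gene, and all 9 were found among its 56303 genes. The table covers T24, an established human bladder cancer cell line that carries an activating HRAS mutation. T24 cells, labelled wild type, grew in RPMI medium with 10% fetal bovine serum and received either a negative control siRNA (siNC) or an siRNA against FBXL6 (siFBXL6). RNA was isolated 48 h after transfection, and 2 µg per sample went into stranded mRNA libraries, 3 per group. The study sequenced these libraries to ask which transcripts differ when FBXL6, a substrate-recognition subunit of an SCF ubiquitin ligase, is silenced.

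FGF ligands bind receptor tyrosine kinases together with heparan sulfate, the receptors dimerize and phosphorylate adaptor proteins, and the signal runs mainly through RAS to the RAF, MEK and ERK kinases and through phospholipase C gamma and PI3 kinase. ERK activity induces its own inhibitors, among them the Sprouty proteins and the DUSP phosphatases, so their transcripts are widely used readouts of the pathway. In the bladder, FGFR3 is recurrently mutated in papillary tumours, and the splice forms of FGFR2 differ between epithelial and mesenchymal cells.

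Total counts per library were 58646515, 60967902 and 56814946 in siNC replicates 1, 2 and 3. For siFBXL6 replicates 1, 2 and 3 the totals were 60968158, 60898556 and 60754015, so depth was similar in both groups. All 6 libraries carry the same batch label. The labels do not say whether replicates came from separate cultures, so p-values measure the spread between these libraries, which may be technical. The labels number the siFBXL6 libraries without naming an siRNA sequence. The study used more than one siRNA against FBXL6 under names of the same form as these labels, so whether the group mixes siRNAs is unknown. Levels are given as CPM, counts scaled to library sizes corrected by the trimmed mean of M values (TMM), and as CPM per kilobase of exon where genes are compared with each other. The filter on low counts left 21298 genes for edgeR's quasi-likelihood test, and those with an adjusted p under 0.05 are the called genes.

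FBXL6, the siRNA target, had 362, 414 and 398 counts in the siNC libraries and 398, 344 and 350 in the siFBXL6 libraries. The groups overlapped, since siFBXL6 replicate 1 held as many counts as siNC replicate 3. The mean level was 6.61 ± 0.38 CPM (SD, n = 3) in siNC and 6.03 ± 0.483 CPM (SD, n = 3) in siFBXL6. Its log2 fold change was -0.13 (SE 0.0875), with an adjusted p of 0.247 in edgeR. Without siFBXL6 replicate 1 it was -0.20 (adjusted p 0.112), still not called. The gene (GRCh38, chr8:144355431-144359376, minus strand) shares 31.7% of its exon bases with SLC52A2 on the opposite strand. SLC52A2 itself held 548, 622 and 607 counts in siNC and 697, 664 and 653 in siFBXL6. The strand setting of the counting is not given in the sources used here, so how reads of that stretch were assigned is unknown. The FBXL6 counts therefore do not show the silencing that the labels name, and the groups below are called the libraries labelled siNC and siFBXL6. By qRT-PCR and Western blot, the paper reports less FBXL6 mRNA and protein in T24 cells transfected with its siRNAs. Whether those were the cultures sequenced here is not stated. The paper also reports lower Snail, N-cadherin and Vimentin and higher E-cadherin protein after knockdown. The CDH2 and CDH1 transcripts below have the directions of N-cadherin and E-cadherin, and those of Snail and Vimentin were not read here. With 40.2% of all genes tested called, such matches do not show the silencing. Every direction below is that of the labels.

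The groups differed widely in other genes. Of the 21298 genes tested, 8569 (40.2%) were called changed, of which 4360 were higher under siFBXL6 (20.5%) and 4209 lower (19.8%). In 10266 genes (48.2%) the CPM values of the groups did not overlap. The median size of the log2 fold change was 0.28 among called genes and 0.18 among all genes tested. Against this background, all 9 FGF genes passed the filter and 4 of them (44.4%) were called, FGF2, FGF5 and FGFBP1 as higher and FGFR2 as lower. In 5 of the 9 the groups did not overlap. Both shares lie near those of all genes, and nothing is read from them about the FGF genes as a set.

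Cell type markers were read for the whole culture. The 11 urothelial and carcinoma markers summed to 3938, 3807 and 3923 CPM in the libraries labelled siNC and to 3474, 3457 and 3468 CPM in those labelled siFBXL6. KRT7 was the most abundant of them, with a mean of 1011 CPM, and UPK1B was at or near 0 (0 to 6 counts). Of the 10 urothelial markers tested, 1 was called higher (CDH1, log2 fold change 0.16) and 6 lower. The 6 were GATA3 (log2 fold change -0.53), KRT5 (-0.48), KRT8 (-0.29), KRT19 (-0.15), EPCAM (-0.15) and KRT7 (-0.08). The KRT7 call was lost without siFBXL6 replicate 1 (adjusted p 0.074) or replicate 3 (0.107), with a range of 0.000987 to 0.107 over the alternatives. KRT18 (log2 fold change 0.00053), PPARG (-0.07) and UPK2 (-0.24) were not called. The sign of KRT18 was not stable (-0.02 to 0.01 over the alternatives), the log2 fold change of UPK2 was -0.40 without siNC replicate 2 and -0.12 without siNC replicate 3, and PPARG passed with upper-quartile normalization (adjusted p 0.0441) or library size alone (0.0346). The 6 fibroblast markers summed to 38.5 to 41.6 CPM under siNC and 35.0 to 36.4 CPM under siFBXL6, nearly all of it COL1A1 (mean 33.2 CPM), which was called lower (log2 fold change -0.15).

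The 3 endothelial markers summed to 1.59 to 1.85 CPM in the siNC libraries and 2.15 to 3.2 CPM in the siFBXL6 libraries. VWF was the most abundant over the 6 libraries (mean 1.02 CPM). PECAM1 was called higher (log2 fold change 1.28) and, at 1.39 CPM, exceeded VWF under siFBXL6 (1.01 CPM), and CDH5 stayed between 2 and 12 counts. The 3 leukocyte markers summed to 7.18 to 7.3 CPM and 18.0 to 20.0 CPM in the same order of groups. CD68, a lysosomal protein that other cells also express, made up nearly all of that (log2 fold change 1.49, called higher), whereas CD3E was at 0 in 5 of the 6 libraries and PTPRC held 14 to 43 counts. The part of these markers in the FGF results was not tested. All libraries are labelled T24, a single cell line, so these markers are not read as numbers of other cells. In RNA from whole cultures, a change in how many cells express a gene and one in RNA per cell cannot be told apart.

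**Figure D1:**
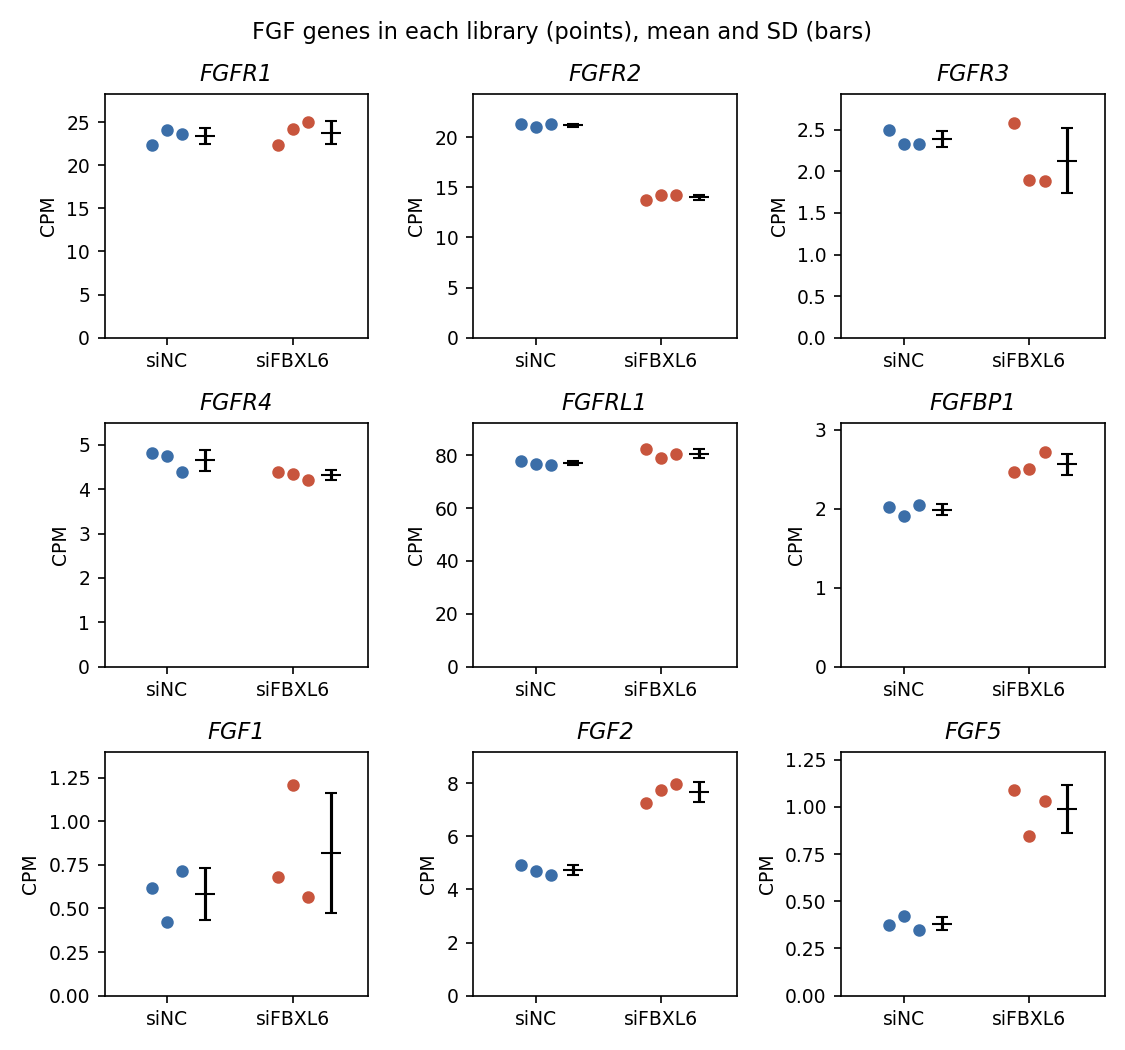
Level of each FGF gene in CPM (vertical axis, from 0) in the 3 libraries labelled siNC and the 3 labelled siFBXL6. Points are libraries, and the bars beside them give the mean and SD. FGFR2 is lower, and FGF2, FGF5 and FGFBP1 are higher, in every siFBXL6 library than in any siNC library, while FGFR1, FGFR3, FGFR4 and FGF1 overlap and FGFRL1 lies narrowly apart.

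FGFR2, a receptor whose epithelial splice form binds ligands made by the stroma, was the receptor that fell. The gene lies at chr10:121478334-121598458 on the minus strand. It held 1247, 1297 and 1222 counts in the libraries labelled siNC, and 829, 856 and 858 in those labelled siFBXL6. All 3 siFBXL6 libraries were below all 3 siNC libraries, by a gap many times the spread within either group. The mean level was 21.2 ± 0.178 CPM (SD, n = 3) in siNC and 14.0 ± 0.288 CPM (SD, n = 3) in siFBXL6. This gave a log2 fold change of -0.59 (SE 0.0536, 95% interval -0.70 to -0.49), which is 0.662 of the siNC level, with an adjusted p of 4e-11 in edgeR. DESeq2 gave an adjusted p of 3.13e-20. Among called genes, 18.0% had a log2 fold change of at least this size, so the difference was larger than that of most called genes but not among the most extreme.

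FGFR1, the receptor most associated with mesenchymal cells, did not pass the test. Its counts were 1311, 1491 and 1358 in the libraries labelled siNC and 1351, 1459 and 1506 in those labelled siFBXL6. The groups overlapped almost completely, at 23.4 ± 0.887 CPM and 23.8 ± 1.35 CPM (mean and SD, n = 3 each). The log2 fold change was 0.03 (SE 0.051), with an adjusted p of 0.733 in edgeR. The 95% interval of the fold ran from 0.947 to 1.09, which reflects the spread between these libraries only. The sign was not stable, since the log2 fold change became -0.0047 without siNC replicate 1 and -0.01 without siFBXL6 replicate 3. The gene lies at chr8:38411138-38468834 (minus strand), and 1.23% of its exon bases overlap an antisense transcript with 42 to 62 counts per library.

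FGFR3, the receptor recurrently mutated in papillary bladder tumours, was counted at a much lower level. It had 146, 144 and 134 counts under siNC and 156, 115 and 114 under siFBXL6. siFBXL6 replicate 1 was the highest of the 6 libraries and the other 2 of that group were the lowest, so the groups overlapped and the siFBXL6 spread was wide. The means were 2.39 ± 0.0947 and 2.13 ± 0.394 CPM (SD, n = 3 each). The log2 fold change of -0.17 (95% interval -0.47 to 0.13) had an adjusted p of 0.403 in edgeR. It was -0.33 without siFBXL6 replicate 1, and -0.09 without replicate 2 or without replicate 3 of that group. The gene lies at chr4:1793307-1808872 on the plus strand.

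FGFR4, a receptor best known for its role in the liver with the endocrine ligand FGF19, also missed the threshold. Counts were 282, 293 and 252 in the libraries labelled siNC and 266, 263 and 253 in those labelled siFBXL6. In CPM, siNC replicate 3 lay among the siFBXL6 libraries, and the other siNC libraries lay above them. At 4.65 ± 0.231 against 4.32 ± 0.106 CPM (mean and SD, n = 3 each), the log2 fold change was -0.11 (95% interval -0.31 to 0.09; edgeR adjusted p 0.423). The gene lies at chr5:177086886-177098144 on the plus strand.

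FGFRL1 is a receptor-like protein that binds FGF ligands but lacks a tyrosine kinase domain. It lies at chr4:1009936-1026897 on the plus strand. It had by far the most counts of the 9 genes, 4544, 4744 and 4389 in the libraries labelled siNC and 4969, 4760 and 4845 in those labelled siFBXL6. In CPM these were 77.7, 76.8 and 76.4 against 82.2, 78.8 and 80.4. The groups did not overlap, but the gap was small beside the spread of the siFBXL6 libraries, and the gene was not called. The log2 fold change was 0.06 (SE 0.0318), the 95% interval of the fold ran from 0.999 to 1.09, and the adjusted p was 0.112 in edgeR.

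The levels of the 4 kinase receptors were then compared per kilobase of exon, since longer genes collect more counts. Summed over FGFR1 to FGFR4, the level was 6.13, 6.17 and 6.10 CPM per kilobase in the libraries labelled siNC. The libraries labelled siFBXL6 had 5.04, 5.09 and 5.13 CPM per kilobase. The siFBXL6 sums all lay below the siNC sums, at 5.09 ± 0.0477 against 6.13 ± 0.0366 (mean and SD). An exact two-sided permutation test of 3 libraries against 3 gave p = 0.1, the smallest value it can reach.

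FGFR2 held the largest share of that sum under siNC, 46.5%, 45.5% and 46.6% in the 3 libraries. Under siFBXL6 its share was 36.4%, 37.2% and 37.1%. FGFR1 moved the other way in share, with 28.8%, 30.8% and 30.5% in siNC libraries and 34.9%, 37.4% and 38.4% in siFBXL6 libraries. Its own level barely differed (above), so the larger share accompanied a smaller sum. The mean difference was -9.31 percentage points for FGFR2 and 6.84 for FGFR1. FGFR4 went from a mean share of 15.7% to 17.6%, also with no overlap between groups. Its own mean level was 4.65 CPM in siNC and 4.32 CPM in siFBXL6, so its larger share too accompanied a smaller sum. The 4 shares are parts of a single sum, so they are not separate results. For each of FGFR1, FGFR2 and FGFR4 the exact permutation p was 0.1, the smallest possible, and 0.133 after adjustment over the 4 shares. Without division by exon length, the FGFR4 difference fell from 1.88 to 0.742 percentage points, with an adjusted exact permutation p of 0.267 against 0.2 for FGFR1 and FGFR2.

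The share of FGFR3 was 8.43%, 7.82% and 7.92% in the libraries labelled siNC and 10.6%, 7.74% and 7.63% in those labelled siFBXL6. A single library, siFBXL6 replicate 1, raised the siFBXL6 mean to 8.65% against 8.05% (exact permutation p = 1.0). Without that library the difference of 0.601 percentage points became -0.372. In means, FGFR2 and FGFR1 were thus at 46.2% and 30.1% under siNC and level with each other, at 36.9% each, under siFBXL6.

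**Figure D2:**
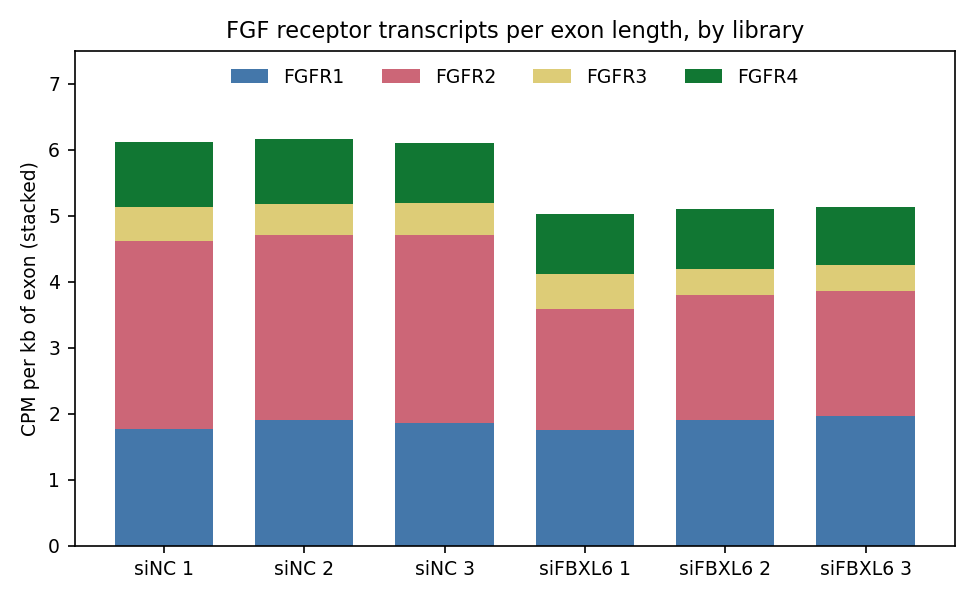
Levels of FGFR1, FGFR2, FGFR3 and FGFR4 in CPM per kilobase of exon (vertical axis, stacked from 0) in each of the 6 libraries. The stacks reach 6.10 to 6.17 in the libraries labelled siNC and 5.04 to 5.13 in those labelled siFBXL6, and of the 4 segments FGFR2 differs most, with means of 2.83 and 1.88.

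These shares depend on the length assigned to each gene. The table gives FGFR1 12698 exon bases summed over its annotated transcripts, whereas its Ensembl canonical transcript has 5697. For FGFR2 the lengths are 7486 and 4624 bases. With canonical lengths, an alternative added after the data were seen, the mean share of FGFR2 was 42.6% and 33.3%, and that of FGFR1 38.2% and 45.9%, in siNC and siFBXL6. Both genes kept the direction of their difference, but FGFR1 then exceeded FGFR2 under siFBXL6. Counts per gene do not separate splice forms, so the epithelial and mesenchymal forms of FGFR2 were not resolved.

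Among the ligands, FGF2 and FGF5 rose. FGF2, a ligand without a classical signal peptide that is stored on heparan sulfate, had 288, 290 and 260 counts in the libraries labelled siNC and 439, 467 and 481 in those labelled siFBXL6. Each siFBXL6 library exceeded every siNC library by more than the whole range of either group. The means were 4.72 ± 0.199 and 7.66 ± 0.366 CPM (SD, n = 3 each). FGF2 had a log2 fold change of 0.70 (SE 0.0865, 95% interval 0.52 to 0.88), a 1.62-fold level, with an adjusted p of 3.9e-08 in edgeR. Of all called genes, 13.7% had a log2 fold change of at least this size.

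FGF2 (chr4:122826708-122898236, plus strand) shares 804 exon bases, 11.9% of its total, with NUDT6 on the opposite strand. Because the strand setting is unknown, reads of that stretch could belong to either gene, and their part in the FGF2 difference was not tested. NUDT6 held 362, 409 and 346 counts under siNC and 327, 326 and 318 under siFBXL6. It lay lower in every siFBXL6 library (log2 fold change -0.23, edgeR adjusted p 0.0354). That call was lost without siNC replicate 2 (adjusted p 0.141), siFBXL6 replicate 1 (0.0647), replicate 2 (0.0701) or replicate 3 (0.0939), without the filter (0.0665) and in DESeq2 (0.0724), and its adjusted p ranged from 0.0217 to 0.141 over 13 alternatives.

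FGF5, a secreted ligand known as a regulator of the hair growth cycle, had the largest fold of the 9 genes and very few counts. It had 22, 26 and 20 counts in the libraries labelled siNC and 66, 51 and 62 in those labelled siFBXL6. The lowest siFBXL6 library held nearly double the count of the highest siNC library. The means were 0.382 ± 0.0366 and 0.988 ± 0.128 CPM (SD, n = 3 each). In edgeR the log2 fold change was 1.36 (SE 0.264, 95% interval 0.83 to 1.90), with an adjusted p of 7.04e-05. The fold of 2.58 has a wide 95% interval, 1.78 to 3.74, on 20 to 66 counts per library. Of all called genes, 3.34% had a log2 fold change of at least this size. The gene lies at chr4:80266599-80336680 (plus strand), where 136 exon bases overlap C4orf22, a gene with 0 to 4 counts per library.

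FGF1, a ligand that binds all FGF receptors, was the least certain of the set. Its counts were 36, 26 and 41 in the libraries labelled siNC and 41, 73 and 34 in those labelled siFBXL6. siFBXL6 replicate 2 stood above the other 5 libraries, which were intermixed. At 0.583 ± 0.149 against 0.817 ± 0.344 CPM (mean and SD, n = 3 each), the log2 fold change was 0.49 (95% interval -0.09 to 1.07; edgeR adjusted p 0.183). Without siFBXL6 replicate 2 it was 0.10, and without siNC replicate 2 it was 0.30. Leaving out siFBXL6 replicate 3 gave 0.70 (edgeR adjusted p 0.0728), and leaving out siNC replicate 3 gave 0.66. FGF1 was not called in any of the 13 alternatives. FGF1 is at chr5:142592178-142698070 on the minus strand.

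FGFBP1 is a secreted carrier that releases FGF ligands from the matrix. It had 118 counts in each of the libraries labelled siNC, and 149, 151 and 164 in those labelled siFBXL6. In CPM the values were 2.02, 1.91 and 2.05 against 2.46, 2.50 and 2.72. The groups lay apart, by less than for FGF2 or FGF5. FGFBP1 rose by a log2 fold change of 0.36 (SE 0.139, 95% interval 0.08 to 0.64), a 1.28-fold level, and the edgeR adjusted p of 0.0358 was close to the threshold. FGFBP1 is at chr4:15935569-15938740 on the minus strand.

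This call was lost in 6 of 13 alternatives, and the adjusted p over them ranged from 0.0349 to 0.124. It was 0.0657 in DESeq2 and 0.0561 without the filter on low counts. Leaving out a library gave 0.0541 (siNC replicate 1), 0.0956 (siNC replicate 2), 0.0588 (siFBXL6 replicate 2) and 0.124 (siFBXL6 replicate 3). The log2 fold change of FGFBP1 itself moved little, from 0.32 to 0.39.

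**Figure D3:**
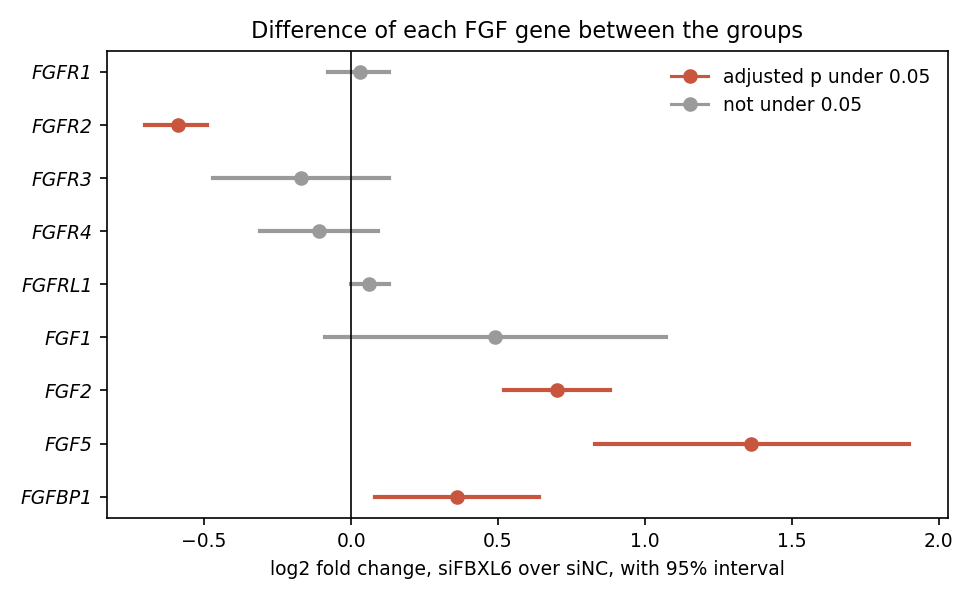
Log2 fold change of each FGF gene, libraries labelled siFBXL6 over siNC (horizontal axis), with 95% intervals from edgeR. The intervals of FGFR2 (-0.70 to -0.49), FGF2 (0.52 to 0.88), FGF5 (0.83 to 1.90) and FGFBP1 (0.08 to 0.64) exclude 0, and FGF1 and FGF5 have the widest intervals.

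The levels of the 9 genes were ordered per kilobase of exon. FGFRL1 was highest in the libraries labelled siNC (18.6 ± 0.157 CPM per kilobase, SD), followed by FGFR2 (2.83 ± 0.0238), FGFR1 (1.84 ± 0.0698) and FGFBP1 (1.47 ± 0.0553). Below them came FGFR4 (0.963 ± 0.0478), FGF2 (0.696 ± 0.0294), FGFR3 (0.494 ± 0.0196), FGF1 (0.111 ± 0.0283) and FGF5 (0.0637 ± 0.0061). Each neighbouring pair in this order differed by more than its SDs on this scale. With canonical transcript lengths, also added after the data were seen, FGFR4 (1.5 ± 0.0746) and FGFBP1 (1.48 ± 0.0556) could not be separated.

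Under siFBXL6 the order depended on the length used. FGFRL1 was again highest (19.4 ± 0.406 CPM per kilobase), but by summed exon length FGFBP1 (1.89 ± 0.102), FGFR1 (1.88 ± 0.107) and FGFR2 (1.88 ± 0.0385) could not be separated. By canonical length they lay apart, with FGFR1 at 4.18 ± 0.238, FGFR2 at 3.04 ± 0.0623 and FGFBP1 at 1.90 ± 0.103 CPM per kilobase. FGF2 (1.13 ± 0.0541) lay above FGFR4 (0.894 ± 0.0219) by summed exon length, the reverse of their order under siNC. By canonical length FGF2 (1.15 ± 0.0551) lay below FGFR4 (1.40 ± 0.0341), as it did under siNC, so that reversal rests on the length used. FGFR3 was at 0.440 ± 0.0815. FGF5 (0.165 ± 0.0214) and FGF1 (0.155 ± 0.0652) did not differ beyond their spread.

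Promoter sequences are shown for the 4 called genes, since these are the members whose transcripts moved with the labels. RefSeq windows on GRCh38.p14, from 250 bases before to 50 after the most upstream start, were read for each gene except FGFR1. Each stretch printed is the part of that window before any annotated exon, 5′ to 3′ on the gene's strand. Capitals mark the GC box, GGGCGG or CCGCCC on the other strand, the letters recognised by SP1-type factors. The stretches are chr10:121598459-121598694 (minus strand), chr4:122826581-122826681 (plus), chr4:80266338-80266587 (plus) and chr4:15938741-15938990 (minus).
FGFR2: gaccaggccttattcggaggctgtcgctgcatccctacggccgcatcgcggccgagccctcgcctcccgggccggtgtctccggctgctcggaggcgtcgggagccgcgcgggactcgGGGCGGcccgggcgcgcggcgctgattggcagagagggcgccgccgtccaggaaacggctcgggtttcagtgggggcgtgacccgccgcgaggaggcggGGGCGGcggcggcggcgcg
FGF2: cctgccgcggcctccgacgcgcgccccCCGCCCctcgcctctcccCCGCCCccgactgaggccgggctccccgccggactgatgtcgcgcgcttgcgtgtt
FGF5: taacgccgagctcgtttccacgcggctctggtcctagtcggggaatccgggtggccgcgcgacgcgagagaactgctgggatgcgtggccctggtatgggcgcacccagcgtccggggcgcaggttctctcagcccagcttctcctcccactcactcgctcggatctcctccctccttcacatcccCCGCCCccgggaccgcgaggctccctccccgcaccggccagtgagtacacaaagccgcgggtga
FGFBP1: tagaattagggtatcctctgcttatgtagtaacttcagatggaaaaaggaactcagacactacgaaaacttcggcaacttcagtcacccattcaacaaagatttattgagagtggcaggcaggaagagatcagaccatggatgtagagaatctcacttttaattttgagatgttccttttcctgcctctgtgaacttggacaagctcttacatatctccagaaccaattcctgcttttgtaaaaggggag

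The whole 300-base windows of FGFR2, FGF2 and FGF5 were rich in G and C, at 79.3%, 74.7% and 67.0%, against a median of 58.7% over 35097 RefSeq windows. They held 5, 3 and 1 GC boxes in that order, and 44.9% of all windows hold at least 1. The FGFBP1 window differed from these, with 42.0% G and C and no GC box. FGFR3, FGFR4 and FGFRL1, which were not called, held 8, 7 and 4 boxes, and FGF1 none, so the letters did not sort the called genes from the others. Neither TATAAA nor the AP-1 letters TGANTCA, searched on both strands, occurred in any of the 8 windows, compared with 11.5% and 7.71% of all windows. A match or its absence describes these letters only.

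Most genes of the wider FGF family did not pass the filter on low counts in T24. Of the 22 FGF genes on the ligand list, 9 passed the filter. Of these 9, 3 rose (FGF2, FGF5 and FGF19) and none fell, 33.3% called against 40.2% of all genes tested. The 9 include FGF11, FGF12, FGF13 and FGF14, none of them called. The median log2 fold change was 0.35 over the 9 and -0.01 over all genes tested. The 0.35 is the value of FGF14, which was not called (edgeR adjusted p 0.456). The 13 not tested had at most 14 counts in any library. FGF3, FGF4, FGF6 and FGF10 were at 0 in all 6 libraries, where 3 counts would correspond to 0.0486 to 0.0522 CPM, a limit that covers counting error only. FGF19, an endocrine ligand, had 2, 16 and 10 counts under siNC and 26, 14 and 34 under siFBXL6. The groups overlapped at siNC replicate 2 and siFBXL6 replicate 2. Its log2 fold change of 1.37 (SE 0.463) had an adjusted p of 0.0173 in edgeR, with a range of 0.00551 to 0.141 over the alternatives. FGF19 no longer passed when siNC replicate 1 was left out (adjusted p 0.121, log2 fold change 0.90), nor without siFBXL6 replicate 1 (adjusted p 0.0624) or replicate 3 (adjusted p 0.141).

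Of the 7 receptors and co-receptors, 6 were tested and FGFR2 alone was called (16.7% against 40.2%), with a median log2 fold change of -0.04. The Klotho co-receptor KL had 34 to 58 counts and did not pass (edgeR adjusted p 0.356), and KLB had 0 to 10 counts and was not tested. Of 3 FGF-binding proteins, 2 were tested and both were called, FGFBP3 in the opposite direction to FGFBP1. In the 6 alternatives where the FGFBP1 call was lost (above), 1 was called. FGFBP3 held 150, 168 and 132 counts in the libraries labelled siNC and 102, 104 and 110 in those labelled siFBXL6. The groups lay apart, and it fell with a log2 fold change of -0.54 (SE 0.144, edgeR adjusted p 0.00297). FGFBP2 had 0 to 2 counts.

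The adaptors that couple the receptors to RAS and phospholipase C moved in both directions. Of 11 tested, 3 rose and 5 fell, 72.7% called against 40.2% of all genes tested, with a median log2 fold change of 0.06. PLCG1, the phospholipase C that docks on activated FGF receptors, fell by 0.46 on the log2 scale (edgeR adjusted p 4.14e-14), from 204 ± 4.98 to 148 ± 4.11 CPM (mean and SD, n = 3 each). PTPN11, the phosphatase SHP2 that sustains RAS signalling, rose (log2 fold change 0.40, adjusted p 5.9e-13 in edgeR). FRS2, the main docking protein of FGF receptors, fell by 0.33 on the log2 scale (adjusted p 1.52e-05), and the RAS exchange factor SOS2 rose (0.18, adjusted p 0.000233). FRS3, the close relative of FRS2 and named after its values were seen, also fell (log2 fold change -0.63, adjusted p 0.00273). Each of these 5 genes differed without overlap between the groups.

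In the RAF, MEK and ERK cascade, 6 of 8 kinase genes were called (75.0% against 40.2% of all genes tested), 2 higher and 4 lower, with a median log2 fold change of -0.08. Without siNC replicate 2, 4 were called. MAP2K1, which encodes MEK1, had 7548, 8593 and 7420 counts under siNC and 11197, 11582 and 11366 under siFBXL6. It rose clear of any overlap (log2 fold change 0.51, edgeR adjusted p 8.12e-15). Its relative MAP2K2, which encodes MEK2, fell by 0.18 on the log2 scale (adjusted p 0.000112). MAPK3, which encodes ERK1, fell by 0.34 (adjusted p 1.66e-05). The kinase transcripts thus had no common direction.

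The feedback and target genes of FGF and ERK signalling made up the list with the most genes tested. Of these 20, 13 rose and 4 fell, 85.0% called against 40.2% of all genes tested, with a median log2 fold change of 0.27 against -0.01. The groups did not overlap in 18 of the 20, against 48.2% of all genes tested. The list was written with earlier results of these data known, so these shares are not independent support for a raised pathway output. PHLDA1, an early response gene, had 8415, 9038 and 8911 counts in the libraries labelled siNC and 14927, 14970 and 14442 in those labelled siFBXL6. Every siFBXL6 library was far above every siNC library (log2 fold change 0.72, SE 0.032, edgeR adjusted p 4.69e-19).

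DUSP6, the ERK phosphatase most often used as an FGF readout, had 5451, 6278 and 5798 counts under siNC and 8409, 8140 and 8317 under siFBXL6. It rose with no overlap (log2 fold change 0.48, SE 0.0334, adjusted p 8.25e-14). The early response gene IER3 (log2 fold change 0.40, adjusted p 5.63e-13) and the phosphatase gene DUSP4 (0.40, adjusted p 7.74e-13) rose to a like degree. T24 carries an activating HRAS mutation, and RAS acts below the receptors, so these transcripts do not single out FGF receptor activity. Whether FGF signalling differed between the groups was not tested.

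The following members of that list were named after their values were seen. DUSP5, a nuclear ERK phosphatase, rose by a log2 fold change of 0.64 (edgeR adjusted p 1.08e-10). The ETS factor genes ETV5 (0.62, adjusted p 3.2e-06) and ETV4 (0.34, adjusted p 1.12e-06) rose, as did the AP-1 gene FOSL1 (0.41, adjusted p 3.38e-12). A further ETS factor gene, ETV1, fell by 0.25 on the log2 scale (adjusted p 0.0185). The ETV1 call was lost without siNC replicate 2 (adjusted p 0.127), siFBXL6 replicate 1 (0.0509) or siFBXL6 replicate 3 (0.07), with a range of 0.0078 to 0.127 over the alternatives. Inhibitors of the pathway split. SPRY4 rose (log2 fold change 0.23, adjusted p 4.19e-06), whereas SPRY1 fell by 0.42 on the log2 scale (adjusted p 0.000384) and SPRED3 by 0.41 (adjusted p 0.000353). SPRY1 held 356 to 370 counts under siNC and 264 to 298 under siFBXL6, fewer than SPRY4 (2691 to 2905 and 3264 to 3449). SPRY2, with 1410 to 1615 counts per library, was called lower (log2 fold change -0.12, edgeR adjusted p 0.0466), though not in DESeq2 (adjusted p 0.0859). SPRED1 was called higher (log2 fold change 0.13, edgeR adjusted p 0.0205).

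**Figure D4:**
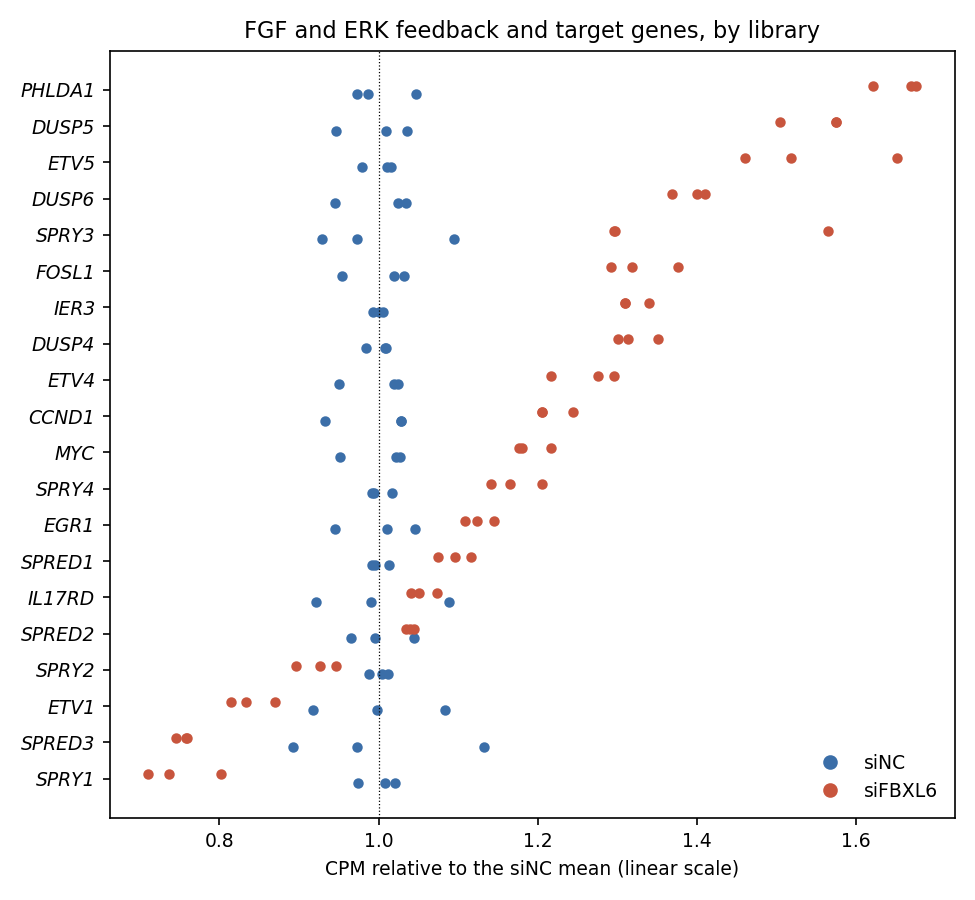
CPM of each of the 20 FGF and ERK feedback and target genes in each library, divided by the siNC mean of that gene (horizontal axis, linear scale, siNC mean at 1). Points are libraries. Of the 20 genes, 13 were called higher and 4 lower (85.0% called, against 40.2% of all genes tested). The siNC and siFBXL6 points do not overlap in 18 of the 20, against 48.2% of all genes tested. The list was written with earlier results of these data known.

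Heparan sulfate, the sugar chain on which FGF ligands meet their receptors, is made and trimmed by the enzymes of the next list. Of 13 genes tested, 4 rose and 5 fell, 69.2% called against 40.2% of all genes tested, with a median log2 fold change of -0.05. SULF2, an extracellular sulfatase that removes sulfate groups from heparan sulfate, had 17407, 18673 and 16878 counts under siNC and 12553, 12145 and 12717 under siFBXL6. It fell by 0.53 on the log2 scale with no overlap (edgeR adjusted p 3.06e-16), and its relative SULF1, much less abundant, fell by 0.87 (adjusted p 2.14e-05). The chain polymerase gene EXT2 rose (log2 fold change 0.48, adjusted p 1.13e-14), as did the chain initiation gene EXTL3 (0.32, adjusted p 3.13e-07). The list had no common direction among makers or trimmers. HS6ST1, a sulfotransferase of the synthesis pathway, fell by 0.18 on the log2 scale (adjusted p 0.00173), and the chain-cleaving heparanase gene HPSE rose (log2 fold change 0.33, adjusted p 0.000482), both named after their values were seen.

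Of 3 partners in the export of FGF1, FGF2 or both, SYT1 was called (33.3% against 40.2% of all genes tested). With upper-quartile normalization or library size alone, 2 of the 3 were called. It had 394, 384 and 352 counts in the libraries labelled siNC and 189, 198 and 212 in those labelled siFBXL6, with no overlap. Its log2 fold change was -0.94 (edgeR adjusted p 1.34e-09). S100A13 did not pass (log2 fold change 0.06, adjusted p 0.157; 0.03 and 0.401 with library size alone).

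Among 7 proteins of the cell surface or matrix that interact with FGF receptors, 3 rose and 2 fell, 71.4% called against 40.2% of all genes tested, with a median log2 fold change of 0.20. CDH2, the N-cadherin gene, had 8139, 8377 and 7932 counts under siNC and 5509, 5620 and 5474 under siFBXL6. It fell by 0.59 on the log2 scale (edgeR adjusted p 3.8e-17), and the FLRT family gene FLRT2 fell by 0.44 (adjusted p 8.41e-09). ANOS1, a matrix protein that modulates FGFR1, rose (log2 fold change 0.57, adjusted p 8.26e-06), and so did FLRT3 (0.23, adjusted p 6.86e-05).

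The splicing regulators that select FGFR2 forms differed little in size. Of 4 tested, 3 were called (75.0% against 40.2% of all genes tested), and 1 without siNC replicate 3 or siFBXL6 replicate 3. RBFOX2 (log2 fold change 0.22, edgeR adjusted p 5.46e-07) and the epithelial regulator ESRP1 (0.10, adjusted p 0.00995) rose, and PTBP1 fell by 0.09 (adjusted p 0.0253). The groups overlapped for PTBP1, with 80.5, 86.7 and 86.4 CPM under siNC and 81.5, 78.5 and 77.7 CPM under siFBXL6. The ESRP1 call was lost without siNC replicate 3 (adjusted p 0.0535) or siFBXL6 replicate 3 (0.0578), with a range of 0.0019 to 0.0578 over the alternatives. The PTBP1 call was lost without siNC replicate 2 (0.129), siNC replicate 3 (0.0926), siFBXL6 replicate 2 (0.1) or siFBXL6 replicate 3 (0.142), and in DESeq2 (0.0557), with a range of 0.000682 to 0.142.

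Over all pathway lists without the 9 members, 74 of 89 genes were tested and 51 were called, 28 higher and 23 lower. The share called was 68.9% against 40.2% of all genes tested, and the median log2 fold change was 0.06 against -0.01. These lists were written with earlier results of these data known, so the larger share is not independent support.

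**Figure D5:**
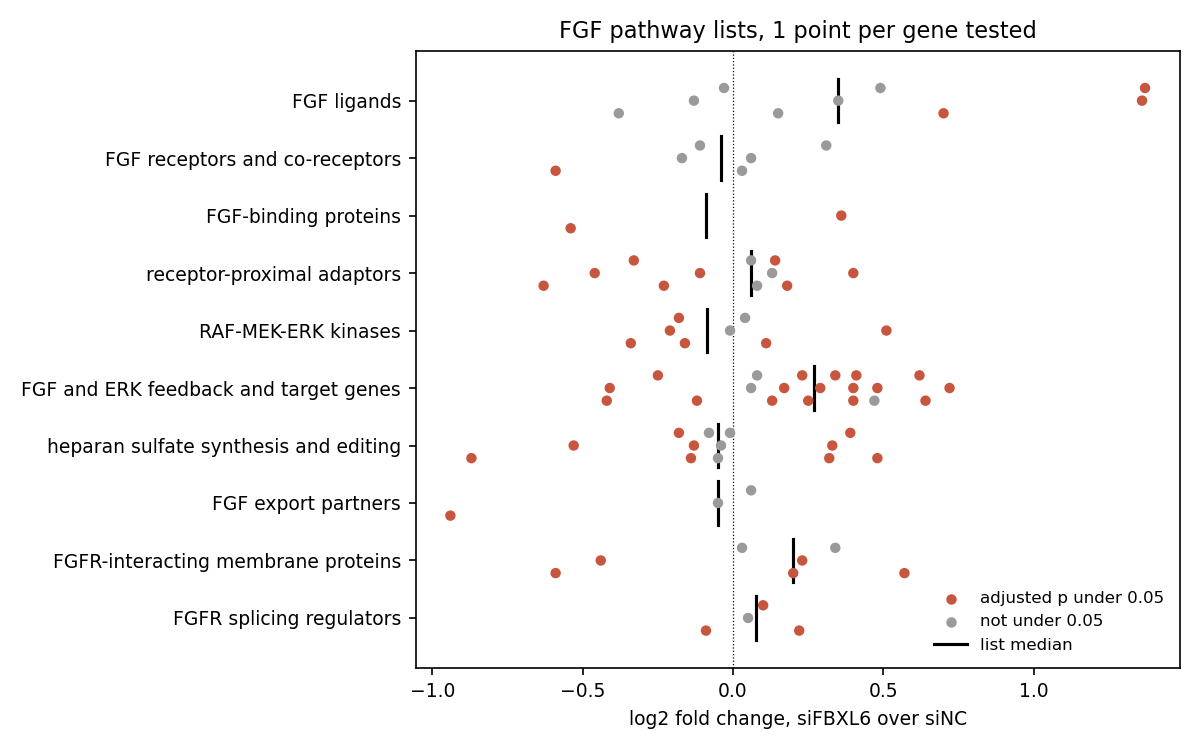
Log2 fold change, libraries labelled siFBXL6 over siNC (horizontal axis), of every tested gene on each FGF pathway list. Each point is a gene, coloured by whether its adjusted p in edgeR was under 0.05, and the bar is the list median. The medians run from -0.09 for the list of FGF-binding proteins to 0.35 for the FGF ligand list, where the median gene is FGF14, not called.

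FGFR2 had the smallest adjusted p of the 9 genes, and the genes with the most similar profile over the 6 libraries were sought among 10630 genes of sufficient level. The highest Pearson correlations of log2 CPM with FGFR2 were those of MX1 (r = 0.9994), GPC4 (r = 0.9994) and NUP210 (r = 0.9992). MX1 had a log2 fold change of -0.54, GPC4 of -0.97 and NUP210 of -0.35, each lower in all 3 libraries labelled siFBXL6. With 6 libraries in a pair of groups, any gene with a clean group difference correlates highly, and 248 genes had an r over 0.99 with FGFR2.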

How the data were processed

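Messenger RNA of T24 cells was measured in 6 libraries, 3 labelled siNC and 3 labelled siFBXL6. The authors deposited whole-number counts per gene, made with featureCounts of Subread 1.5.1 on GRCh38, and the deposited table also gives each gene's summed exon length in bases. The study's methods name Trimmomatic and HISAT2 for trimming and alignment, whereas the submitters' processing notes name fastp 0.23.0 and STAR. The annotation release, the strand setting and the treatment of reads over several genes are not given in the sources used here. Library totals were 56814946 to 60968158 counts.

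Genes were filtered with filterByExpr, scaled by TMM and tested with the quasi-likelihood test of edgeR 4.0.16 (limma 3.58.1, R 4.3.3), condition being the only term. The study's methods name DESeq2, and DESeq2 1.42.0 was run as an alternative. P-values were two-sided and Benjamini-Hochberg adjusted over all 21298 genes tested, with a threshold of 0.05. The fit was tested on simulated data. Chi-square values per degree of freedom between replicates were 2.761 to 5.804, above sampling noise, so no pair was taken to be the same library. Log2 CPM for the correlations used a prior count of 2. Receptor shares were compared by exact two-sided permutation tests. Intervals cover 95%.

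The members and pathway lists were chosen with earlier results of these data known. Named genes are the 9 members, FBXL6, up to 4 genes per list with the smallest adjusted p under 0.05, genes whose exons overlap a member, and the 3 most similar to FGFR2 among genes with a mean log2 CPM of at least 3. All other genes named, among them single cell type markers, KL and S100A13, were chosen after their values were seen. Single results of 2 list genes are not reported here. Alternatives covered normalization, filter, tool, replicate block, exon length and each library left out. Promoter windows came from RefSeq (GRCh38.p14), and canonical transcript lengths from GENCODE release 44.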

Additional observations from a re-analysis of the deposited data

How the results depend on the processing

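Calls and directions were recomputed under 13 alternatives. FGFR2, FGF2 and FGF5 kept their direction and their call in all 13, with log2 fold changes of -0.62 to -0.58, 0.67 to 0.74 and 1.29 to 1.47. FGFBP1 kept its direction and lost its call in 6. The log2 fold change of FGFR1, near 0, turned sign in 2 and ran from -0.01 to 0.07 as libraries were left out (-0.0047 without siNC replicate 1); the cause was not tested. The FGFR3 share difference ran from -0.372 to 1.11 percentage points in the same way. Of 117 values for the 9 members, 109 kept direction and side of the threshold. For 58 other named genes, SPRY2 and SPRED1 not among them, 723 of 753 values did so. Of the rest, 21 lost a call, 3 gained one and 6 turned sign. The 6 were all of KRT18, near 0 (-0.02 to 0.01), at -0.02 with upper-quartile or library-size scaling, -0.00048 without the filter, -0.01 without siNC replicate 2 or siFBXL6 replicate 1, and -0.00077 without siFBXL6 replicate 3; the cause was not tested. The count of members called was 3 or 4, and that of all genes 7451 to 8707. Replicate numbers did not pair the libraries, since deviations of same-numbered libraries correlated at -0.0108, 7.99e-05 and 0.0133. With the replicate block, 8408 genes and 4 members were called. Scalings moved the median of all genes by under 0.1. FGF5, FGF1 and FGF19 rest on at most 73 counts per library.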
